A study of Mus musculus with 2 samples.

Results

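The genes described here are the bile acid receptor FXR (Nr1h4), its target SHP (Nr0b2) and 8 hepatic bile acid transporters, chosen by gene name. They are 10 of the 27962 gene names on the array and are measured by 13 probes. All 10 passed the filter on dim probes, as did 16722 genes in all. Of the transporters, 5 carry solutes from blood into hepatocytes and 3 export them.

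Liver RNA came from male apoE-KO mice of the C57BL/6 strain, which were 10 weeks old when the diets began. One group stayed on normal chow and the other received the same chow with 1.25% cholesterol, the high-Chol diet, for 1 week. Both groups lack apoE, so no comparison with an intact gene is possible. The RNA was hybridized to 6 one-colour Agilent whole mouse genome arrays, 3 per diet. The study's methods speak of independent experiments at each diet, but the number of mice behind each array is not given in the sources used here, and the p-values measure the spread between these arrays.

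Bile acids are made from cholesterol in hepatocytes, secreted into bile, taken up from the intestine and returned to the liver in portal blood. FXR is the nuclear receptor that binds bile acids in the hepatocyte, and it works with its partner RXR. Among its known targets are SHP, a repressor without a DNA-binding domain that lowers bile acid synthesis, and the canalicular export pump BSEP (Abcb11).

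FXR is known to bind an inverted repeat of the hexamer AGGTCA with 1 base between the copies, IR1 (AGGTCANTGACCT). Both strands of each RefSeq promoter (GRCm38.p6, from 250 bases before to 50 after the gene start) were searched for it with at most 2 mismatches over the 12 fixed bases. Of 32851 promoters, 374 held a match (1.14%), and 27 (0.0822%) held one with at most 1 mismatch. All members but Abcc3, that is 9, had a promoter in the table, 11 promoters in total. Matches lay in the promoters of 2 members, Abcb11 and Slco1b2, each with 1 mismatch. The matched 13 bases begin 63 bases before the gene start in Abcb11 and 88 bases before it in Slco1b2. Both stretches of 250 bases before the start are shown 5′ to 3′ because they alone among the members held the motif, which is in capitals. A match is a description of the letters and not a binding site.
Abcb11, chr2:69342617-69342866, minus strand: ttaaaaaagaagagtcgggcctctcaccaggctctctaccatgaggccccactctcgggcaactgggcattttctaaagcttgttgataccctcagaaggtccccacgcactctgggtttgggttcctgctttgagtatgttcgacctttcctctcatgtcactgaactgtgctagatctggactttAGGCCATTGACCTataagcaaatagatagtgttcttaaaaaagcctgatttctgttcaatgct
Slco1b2, chr6:141629268-141629517, plus strand: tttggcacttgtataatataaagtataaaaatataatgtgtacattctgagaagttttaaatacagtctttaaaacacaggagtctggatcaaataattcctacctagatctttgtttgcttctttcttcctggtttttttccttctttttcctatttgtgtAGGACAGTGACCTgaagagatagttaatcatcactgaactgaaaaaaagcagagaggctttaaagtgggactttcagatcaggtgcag

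Each gene is read by 60-base probes, and 3 of the members have 2 probes. The first 30 bases, in array orientation, are shown for the receptors and for the members whose probes are compared below, with positions on mm7 as the array annotation gives them. Whether these positions are exonic or untranslated was not determined, since no mm7 annotation was used here. Nothing is marked in these sequences.
Nr1h4, chr10:89013326-89013385, minus strand: tggcaattatacacctcccacggttgtaaa
Nr0b2, chr4:132932212-132932271, plus strand: agtatacttaagaagatcctgctagaggaa
Slco1a1, brighter probe, chr6:141961072-141961131, minus strand: ccaagttcgagaacgatggagaactgaaaa
Slco1a1, dimmer probe, chr6:141960693-141960751, minus strand: ctgaatttatccttcaatgttggaggtatt
Slco1a5, brighter probe, chr6:142322465-142322524, minus strand: cctgcattcttcattctgatacttatgagg
Slco1a5, dimmer probe, chr6:142322217-142322276, minus strand: ggaactcttttcctaaaataaatcagggct
The Slco1 genes are close relatives, so probes of one could bind RNA of another. Set side by side without gaps, probes of different Slco1 genes shared at most 22 bases. The transcripts themselves were not compared.

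The value of a gene is the log2 of its background-subtracted spot signal minus the log2 of the 75th percentile of its array, so 0 marks the signal that 75% of the spots stay under. Signals of different probes cannot be set against each other, and each gene is compared only with itself. Differences are the high-Chol diet minus normal chow, with the standard error (SE), and adjusted p-values are limma's after the Benjamini-Hochberg procedure over 16722 genes. With 3 arrays against 3, the exact two-sided permutation test cannot go below p = 0.1.

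The 3 normal chow arrays and high-Chol array 1 lay on slide 1, and high-Chol arrays 2 and 3 on slide 2. Slide 2 held no normal chow array, so a difference with slide as a block is the same as one within slide 1. Both are high-Chol array 1 minus the normal chow mean, and p-values with slide as a block rest on that 1 high-Chol array. The 75th percentile was 271 to 374 on slide 1 and 762 to 799 on slide 2, and 50.5 to 67.2% of the spots were well above background. Over all genes, 450 passed an adjusted p of 0.05 as higher and 38 as lower, which became 331 and 73 with scaling to the median. Apoe lay between 1.66 and 3.81 on the 6 arrays, and since the part of the gene that its probe reads was not compared with the deletion, this checks nothing. The hepatocyte markers Alb, Ttr, Apoa1, Tat and Tdo2 were well above background on all arrays.

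Of the 10 members, 8 were lower and 2 higher on the high-Chol diet, and limma called 0 of them at an adjusted p under 0.05. Over all genes it called 488 of 16722, or 2.92%. At an unadjusted p under 0.05 the members were 6 of 10, against 21.2% of all genes, and by the methods' t-test they were 2 of 10, against 16.7% of all genes, with 0 after adjustment, against 0.0299%. The arrays of the diets did not overlap for 4 members that were lower (13.7% of all genes) and for 1 that was higher (11.6% of all genes). The exact permutation p was 0.1 for each of these members. The median difference was -0.59 over the members and -0.02 over all genes, against -0.37 and -0.06 with slide as a block and -0.35 and -0.11 with the normexp background.

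**Figure D1:**
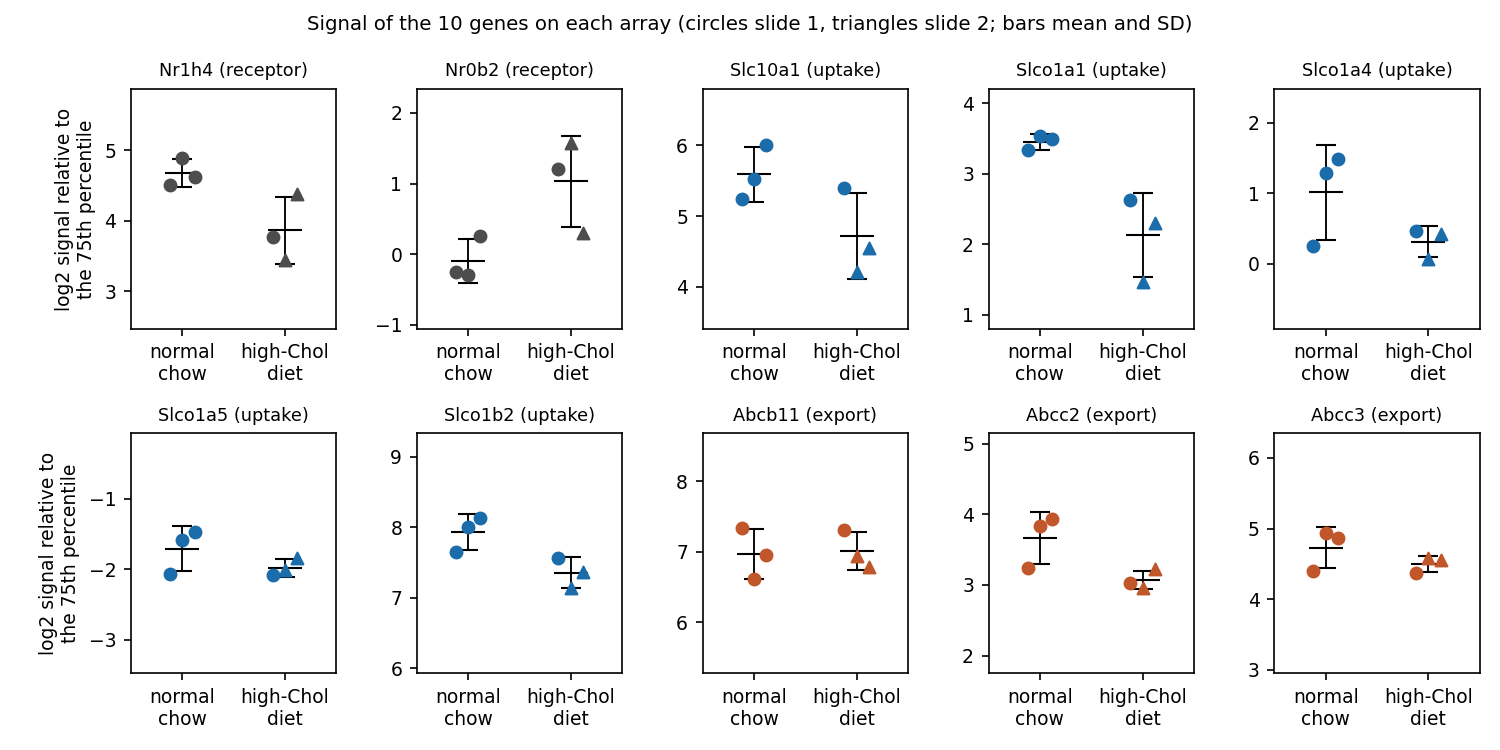
Signal of each gene on each array, as log2 relative to the 75th percentile of the array (y axes of equal span), for normal chow and the high-Chol diet. Circles are arrays of slide 1, triangles arrays of slide 2, and bars the mean and SD of 3 arrays. Nr1h4, Slco1a1, Slco1b2 and Abcc2 lie lower and Nr0b2 higher on the high-Chol diet without overlap.

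The receptor and its target differed in opposite directions. Nr1h4 was 4.50, 4.89 and 4.62 under normal chow and 3.77, 3.44 and 4.38 on high-Chol arrays 1, 2 and 3. All high-Chol arrays lay under all normal chow arrays, and array 3 came close to them. The means were 4.67 ± 0.20 and 3.86 ± 0.48 (SD, n = 3 each), a 1.75-fold lower signal on the high-Chol diet. The difference of -0.81 (SE 0.26, 95% interval -1.42 to -0.20) had an adjusted p of 0.162 by limma, and the exact permutation p was 0.1.

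Nr0b2 was -0.25, -0.30 and 0.25 under normal chow and 1.20, 1.58 and 0.30 under the high-Chol diet. Arrays 1 and 2 of the high-Chol diet stood well above normal chow, while array 3 exceeded the highest normal chow array by little. The means were -0.10 ± 0.31 and 1.03 ± 0.65 (SD, n = 3 each), a 2.18-fold higher signal, with a difference of 1.13 (SE 0.34, 95% interval 0.32 to 1.93) and an adjusted p of 0.147 by limma. Within slide 1 the differences were 1.30 for Nr0b2 and -0.90 for Nr1h4. The study itself listed both genes from these same arrays, so their directions here are not independent evidence. By real-time RT-PCR the study reported FXR mRNA as suppressed. For SHP its discussion states an unchanged mRNA level, with the data not shown, unlike the higher Nr0b2 signal here.

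The arrays on which Nr0b2 was highest and Nr1h4 lowest were also those on which clock output genes were lowest. Dbp, a transcription factor whose level follows the time of day, was 6.57, 6.49 and 6.80 on normal chow and 0.86, 0.86 and 5.64 on high-Chol arrays 1, 2 and 3. Of 10 clock genes tested, 8 were lower and 0 were called, with a median of -0.97 overall and -1.34 within slide 1. One of the lower genes, Per3, was well above background on 2 of 3 high-Chol arrays. The 2 higher genes were Arntl, which differed by 2.45, and Clock, which differed by 0.80. The summed signal of the clock genes, in units of the 75th percentile, ran from 114 to 138 on normal chow. It ran from 12.9 to 67.6 on the high-Chol diet. Dbp, the brightest of them on normal chow, made up most of the sum there. The difference was -0.97 for Nr1d2 (adjusted p = 0.0922 by limma), -4.17 for Dbp (adjusted p = 0.134) and -1.80 for Tef (adjusted p = 0.164). Their part in the values of the receptors was not tested.

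The partners of FXR and other sensors of bile acids shared the direction of Nr1h4. All 11 of the 12 listed genes that could be tested were lower, 0 were called, 4 had an unadjusted p under 0.05 (21.2% of all genes), and the median was -0.41. The median was -0.18 with normexp and -0.64 with scaling to the median, and 7 of 11 were lower with slide as a block. Vdr was too dim to be tested, and Gpbar1 was well above background on 2 of 3 high-Chol arrays. Rxra, the RXR partner itself, was 6.01, 6.04 and 5.95 under normal chow and 5.50, 5.27 and 5.63 under the high-Chol diet, a difference of -0.53 (SE 0.15, adjusted p = 0.135 by limma). Its 3 high-Chol values lay under all 3 normal chow values. Ppara, the fatty acid receptor, differed by -0.94 (adjusted p = 0.121) and Foxa2, a hepatocyte forkhead factor, by -0.76 (adjusted p = 0.153). Hnf4a, the hepatocyte nuclear receptor, and Ppargc1a, a coactivator, differed less, by -0.26 and -0.18. Within slide 1 the list's median was -0.39.

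All 5 uptake transporters were lower on the high-Chol diet, with a median difference of -0.69 and a range from -1.33 to -0.27. Limma called 0 of them, and 3 had an unadjusted p under 0.05 (21.2% of all genes), or 1 with slide as a block (9.1%). Slc10a1 (NTCP), the sodium-dependent carrier of conjugated bile acids, was 5.24, 5.53 and 6.00 under normal chow and 5.39, 4.20 and 4.55 under the high-Chol diet. High-Chol array 1 lay within the range of normal chow, whereas arrays 2 and 3, both of slide 2, lay below it. The means were 5.59 ± 0.39 and 4.72 ± 0.61 (SD, n = 3 each), and the difference of -0.87 (SE 0.34) had an adjusted p of 0.213 by limma. It was -0.20 within slide 1 and -1.21 for the arrays of slide 2 against normal chow.

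The organic anion transporter Slco1a1 had the largest difference of the 10 members as processed here, although Nr0b2 differed more with slide as a block, with the normexp background and without high-Chol array 3. Its brighter probe read 3.34, 3.54 and 3.49 under normal chow and 2.62, 1.46 and 2.30 under the high-Chol diet. The normal chow arrays were close together, all high-Chol arrays were lower, and array 2 was the lowest. The means of 3.45 ± 0.11 and 2.13 ± 0.60 (SD, n = 3 each) amount to a 2.51-fold lower signal, a difference of -1.33 (SE 0.30, 95% interval -2.02 to -0.63, adjusted p = 0.0711 by limma). Its dimmer probe read 2.53, 2.65 and 2.49 under normal chow and 1.86, 0.89 and 1.76 under the high-Chol diet, a difference of -1.06 (SE 0.30). Both probes put the high-Chol arrays in the same order. Within slide 1 the brighter probe differed by -0.83.

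Without high-Chol array 1, Slc10a1 differed by -1.21 (adjusted p = 0.0261 by limma) and Slco1a1 by -1.57 (adjusted p = 0.0125), and both were then called. In that comparison 3074 of 16678 genes were called. All normal chow arrays were then on slide 1 and both high-Chol arrays on slide 2, so that slide and diet cannot be told apart.

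Slco1b2 (OATP1B2), the transporter of unconjugated bile acids and bilirubin conjugates at the sinusoid, was 7.65, 8.00 and 8.13 under normal chow and 7.56, 7.13 and 7.36 under the high-Chol diet. The diets did not overlap, although high-Chol array 1 and normal chow array 1 were close. The means were 7.93 ± 0.25 and 7.35 ± 0.22 (SD, n = 3 each), with a difference of -0.58 (SE 0.19, adjusted p = 0.173 by limma) that was -0.37 within slide 1, -0.25 with normexp and -0.32 with quantile normalization.

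Slco1a4 (OATP1A4), another organic anion carrier of the sinusoidal membrane, was 0.25, 1.29 and 1.49 under normal chow and 0.46, 0.06 and 0.42 under the high-Chol diet. Normal chow array 1 lay among the high-Chol arrays, and the difference of -0.69 (SE 0.33) had an adjusted p of 0.273 by limma. It was -1.07 without normal chow array 1, -0.45 without normal chow array 3 and -0.37 with normexp. Slco1a5, a carrier of the same family, was -2.07, -1.59 and -1.47 under normal chow and -2.08, -2.02 and -1.84 under the high-Chol diet. Its difference of -0.27 (SE 0.20, adjusted p = 0.437 by limma) came with overlapping diets, and was -0.45 without normal chow array 1, -0.15 without normal chow array 3, -0.46 with normexp and -0.51 with scaling to the median and in the authors' values. The dimmer Slco1a5 probe was not well above background on any normal chow array and was so on 2 of 3 high-Chol arrays, both of slide 2, so no fold is given for it. Slco1a5 was also in the study's own list from these arrays, with a larger decrease and a smaller p-value than found here.

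Among 9 testable carriers of the wider uptake families, 7 were lower, 0 were called, and the median was -0.22. It was -0.10 with normexp, -0.12 with slide as a block and -0.45 with scaling to the median, and 5 of 9 were lower with quantile normalization. Slc10a2, the sodium-dependent carrier of ileum and bile ducts, was 1.09, 1.90 and 1.39 under normal chow and -0.13, 0.32 and 0.88 under the high-Chol diet, without overlap, a difference of -1.11 (SE 0.31, adjusted p = 0.126 by limma). The study listed it too, with a larger decrease. Slco2b1, an organic anion transporter, differed by -0.57 (adjusted p = 0.137) and Slc22a7, a carrier of organic anions, by -1.28 (adjusted p = 0.151). Slco1a6 and Slco4a1 were too dim to be tested, and no probe was matched to Slc10a5.

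The export transporters had a median difference of -0.23, with 2 of 3 lower and 0 called. Abcb11 (BSEP), the pump that moves bile salts into the canaliculus, was 7.34, 6.62 and 6.96 under normal chow and 7.31, 6.94 and 6.78 under the high-Chol diet. The high-Chol values lay inside the range of normal chow. The means were 6.97 ± 0.36 and 7.01 ± 0.27 (SD, n = 3 each), and the difference of 0.04 (SE 0.23) had a 95% interval from -0.52 to 0.59 and an adjusted p of 0.934 by limma. The sign of this difference was not fixed, with -0.20 after scaling to the median and in the authors' values, -0.14 without normal chow array 2, -0.11 without high-Chol array 1 and 0.34 within slide 1.

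Abcc2 (MRP2), the canalicular pump for conjugated bilirubin and other organic anions, was 3.24, 3.83 and 3.94 under normal chow and 3.03, 2.96 and 3.22 under the high-Chol diet. The diets were separated by a narrow gap, between normal chow array 1 and high-Chol array 3. The means were 3.67 ± 0.37 and 3.07 ± 0.13 (SD, n = 3 each), with a difference of -0.60 (SE 0.22, 95% interval -1.11 to -0.09, adjusted p = 0.193 by limma) that was -0.64 within slide 1 and -0.34 with normexp.

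Abcc3 (MRP3), which exports organic anions across the basolateral membrane into blood, was 4.40, 4.93 and 4.86 under normal chow and 4.37, 4.58 and 4.55 under the high-Chol diet. The diets overlapped, since normal chow array 1 lay among the high-Chol arrays. Its difference was -0.23 (SE 0.19, 95% interval -0.67 to 0.22, adjusted p = 0.486 by limma), and 0.04 with the normexp background. The dimmer probe of Abcc3 was well above background on 2 normal chow and 3 high-Chol arrays and differed by -0.01.

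**Figure D2:**
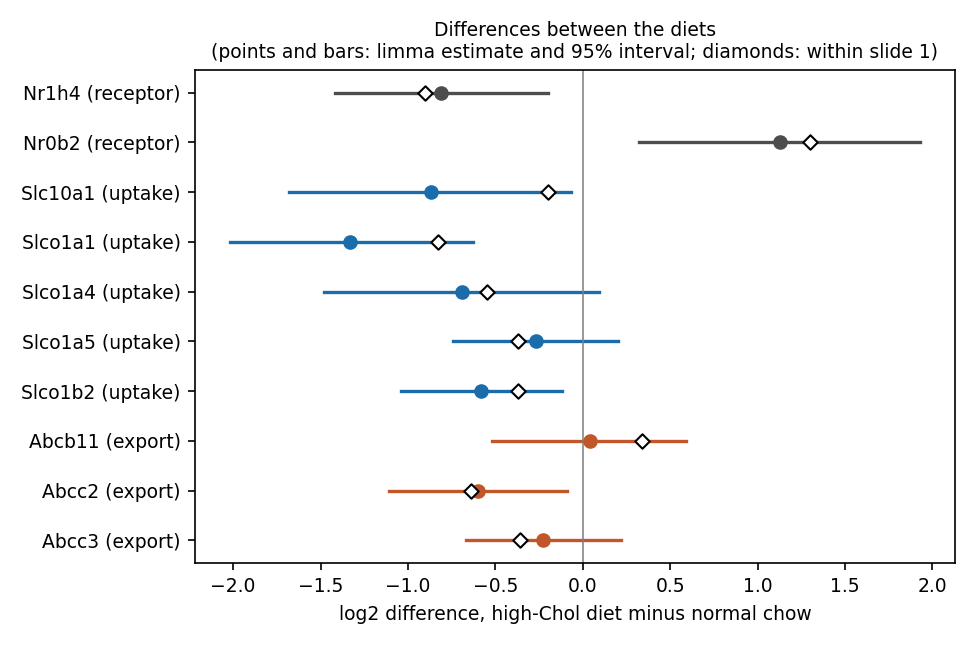
Difference of each gene between the diets on the log2 scale, high-Chol diet minus normal chow. Filled points and bars are the limma estimate and its 95% interval from 6 arrays, and open diamonds are high-Chol array 1 minus the mean of the normal chow arrays, all of slide 1. Slc10a1 has the widest gap between point and diamond, -0.87 against -0.20.

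Set side by side on each array, uptake transporters lay further under their normal chow means than export transporters on the high-Chol diet. The mean deviation of the 5 uptake genes was -0.37, 0.10 and 0.27 under normal chow and -0.46, -1.09 and -0.69 under the high-Chol diet. For the 3 export genes it was -0.13, 0.00 and 0.13 under normal chow and -0.22, -0.30 and -0.27 under the high-Chol diet. Export minus uptake was thus 0.24, -0.10 and -0.15 under normal chow and 0.24, 0.79 and 0.42 under the high-Chol diet. High-Chol array 1, the one on the slide of the normal chow arrays, had the same contrast as normal chow array 1, and the larger contrasts came from the arrays of slide 2. Within slide 1 the median differences were -0.37 for uptake and -0.36 for export. Without normal chow array 1 the uptake median was -1.05. No test of the contrast was made, as the genes were picked with results known.

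**Figure D3:**
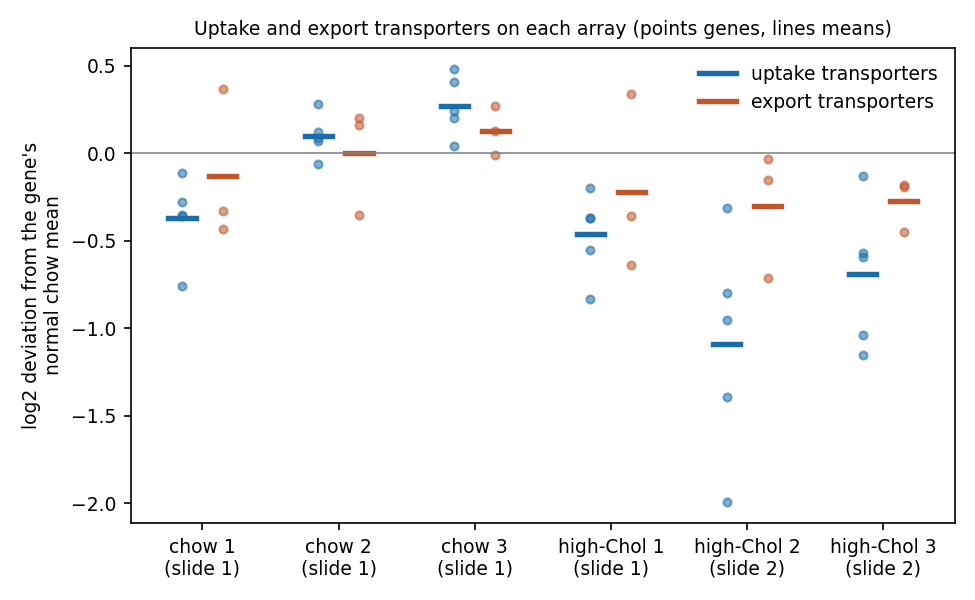
Deviation of each uptake (blue) and export (orange) transporter from its own normal chow mean on each array, in log2 units, where points are genes and thick lines the means of the 5 uptake and 3 export genes. The lines part most on high-Chol arrays 2 and 3 of slide 2, by 0.79 and 0.42, and by 0.24 on high-Chol array 1.

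Of 10 other export pumps and flippases, 6 were higher and 4 lower, with a median difference of 0.20. With scaling to the median, 4 were higher and 6 lower, with a median of -0.04. With slide as a block, 5 were higher and 5 lower, with a median of 0.01. Among the 6 that were higher as processed here, Abcb1a was well above background on 1 normal chow and 3 high-Chol arrays. It was thus tested only through the diet on which it was higher. Abcc1 (MRP1), an exporter of glutathione conjugates, was the 1 gene of these 10 that limma called, against 2.92% of all genes in either direction. It was -2.70, -2.70 and -2.55 under normal chow and -1.31, -0.95 and -1.54 under the high-Chol diet, with no overlap. It rose by 1.38 (SE 0.19, adjusted p = 0.0151 by limma). With slide as a block the difference was 1.34 and the adjusted p 0.165, and with the normexp background the difference was 0.10. Abcc4 (MRP4), a basolateral exporter, differed by 0.71 (adjusted p = 0.180 by limma) and Abcc6 by -0.53 (adjusted p = 0.228). Within slide 1 these differences were 0.25 and -0.14.

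Proteins that tie transporters to the apical membrane had a median difference of -0.24, which ran from -0.48 with scaling to the median to -0.06 with normexp. Of the 7, 2 were called, both higher, against 2.92% of all genes called in either direction. Msn (moesin), which links actin to the membrane, rose by 1.09 (SE 0.19, adjusted p = 0.0351 by limma), from -2.80, -2.67 and -2.96 to -1.91, -1.38 and -1.87, but differed by -0.14 with the normexp background. Ezr (ezrin), of the same family, rose by 0.90 (SE 0.16, adjusted p = 0.0392) and differed by 0.61 with normexp. With scaling to the median limma's adjusted p was 0.0816 for Msn and 0.126 for Ezr. With quantile normalization it was 0.0604 for Msn and 0.0449 for Ezr. With slide as a block their adjusted p-values were 0.349 and 0.338. Slc9a3r1, the scaffold NHERF1, differed by -0.60 (adjusted p = 0.173). The related radixin gene Rdx, the ERM protein of the hepatocyte canaliculus, differed by -0.25. It falls outside the rule for named genes and was added after its value was seen. The value of Rab11a rests on 5 arrays.

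Known FXR-induced genes and the FGF15 axis had a median of -0.06 over 6 testable genes of 9, with 3 higher, 3 lower and 0 called. The median was 0.01 with quantile normalization and -0.29 with scaling to the median. Slc51b, the beta subunit of the basolateral bile acid exporter OST, was -2.60, -5.51 and -3.23 under normal chow and -2.37, -2.11 and -2.47 under the high-Chol diet. It was not well above background on normal chow array 2 and passed the filter only through the diet on which it was higher, so its difference of 1.46 (SE 0.68, adjusted p = 0.263 by limma) depends on a value at background. Apoc2, an activator of lipoprotein lipase, differed by -0.46 and Klb, the FGF15 co-receptor, by -0.33. Within slide 1 they differed by -0.07 and -0.10. Slc51a, the partner subunit of Slc51b, was too dim to be tested, as were Fgf15 and Fabp6.

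Of 13 genes of bile acid synthesis and conjugation, 10 were lower, 3 higher and 0 called, with a median of -0.18. It was 0.05 with the normexp background, where 6 were lower and 7 higher, and -0.07 over 12 genes with slide as a block. Hsd3b7, one of the 3 genes higher as processed here, had a value on 1 high-Chol array alone. Cyp7a1, the rate-limiting enzyme of the classic pathway and a known target of SHP repression, was 3.73, 4.49 and 4.99 under normal chow and 2.80, 1.05 and 5.36 under the high-Chol diet. The high-Chol arrays lay both below and above the normal chow arrays. The difference of -1.33 (SE 0.99) had an adjusted p of 0.442 by limma. Cyp8b1, the sterol 12-alpha-hydroxylase, was 3.10, 2.24 and 2.61 under normal chow and 2.61, 0.98 and 0.36 under the high-Chol diet, a difference of -1.34 (SE 0.56, adjusted p = 0.231). Array 1 lay within the range of normal chow and the arrays of slide 2 below it. Cyp7b1, of the alternative pathway, differed by -1.04 (adjusted p = 0.135), Acox2, of side chain oxidation, by 0.66 (adjusted p = 0.131), and Slc27a5, the bile acid CoA ligase, by -0.49 (adjusted p = 0.212).

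**Figure D4:**
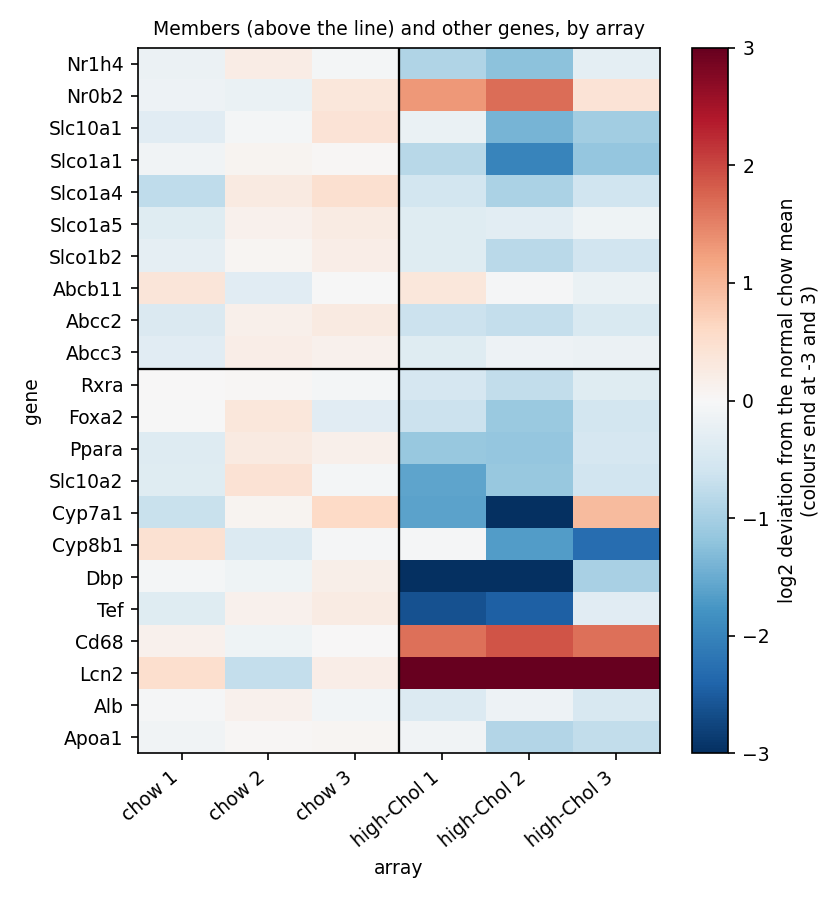
Deviation from the normal chow mean, in log2 units by colour (ending at -3 and 3), of the 10 members above the line and of partner, carrier, synthesis, clock, macrophage, acute-phase and hepatocyte genes below it, for each array. High-Chol arrays 1 and 2 share a low Dbp and a high Nr0b2, array 3 lies nearer to normal chow in both, and Cd68 and Lcn2 are high on all high-Chol arrays.

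Whole liver was measured, so fewer hepatocytes and less RNA per hepatocyte cannot be told apart. Of the hepatocyte markers, 4 of 5 tested were lower and 0 were called, with a median of -0.47. The median was -0.16 with normexp, -0.28 with quantile normalization, where 3 of 5 were lower, -0.29 with slide as a block and -0.71 with scaling to the median. Ttr differed by 0.48, Apoa1 by -0.57 and Alb by -0.34, and within slide 1 by 0.18, -0.09 and -0.41. The summed signal of the hepatocyte markers, in which the brightest genes weigh most, ran from 1255 to 1494 times the 75th percentile on normal chow. On the high-Chol diet it ran from 953 to 1097.

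Macrophage markers were higher in 7 of 7, with a median of 0.82, and 3 were called: Cd68 rose by 1.74 (adjusted p = 0.006 by limma), Cd5l by 1.42 (adjusted p = 0.0123) and Marco by 1.83 (adjusted p = 0.0351). With slide as a block these adjusted p-values were 0.0832, 0.120 and 0.251. Limma called 2.92% of all genes in either direction, the share to set beside each called count of this paragraph. With the normexp background Cd68, Cd5l and Marco differed by 1.39, 1.68 and 2.07, and the acute-phase gene Lcn2, given next, by 2.61. In that setting 0 genes of the array were called. The summed signal of the macrophage markers ran from 106 to 121 on normal chow and from 246 to 290 on the high-Chol diet. The Adgre1 value is missing on high-Chol array 2. Of 7 acute-phase genes, 5 were higher with a median of 2.41 and 1 was called, Lcn2, which rose by 4.03 (adjusted p = 0.0053, or 0.0832 blocked by slide), while Saa3 differed by 2.93 and Saa1 by 2.43. Normal chow array 1, which had the lowest mean of the uptake transporters on its diet, also stood nearest to the high-Chol arrays in Saa1, at 7.51 against 5.41 and 5.10 on the other normal chow arrays and 7.96, 8.60 and 8.74 under the high-Chol diet. Cholangiocyte markers had a median of -0.47, with 4 of 5 lower and 0 called, or -0.71 with scaling to the median, -0.31 with normexp and -0.30 with slide as a block, where 3 of 5 were lower. Of these, Spp1 differed by -0.57, Epcam by -0.48 and Krt7 by -0.47, with summed signals from 14.0 to 17.0 on normal chow and from 9.64 to 12.8 on the high-Chol diet, and Cftr was too dim to be tested. Endothelial markers had a median of 0.27 over 5 genes, with 4 higher, 1 lower and 0 called. With scaling to the median it was 0.03, with 2 of 5 lower. Cdh5 differed by 0.94, Lyve1 by 0.41 (0.09 within slide 1), Stab2 by 0.27, Pecam1 by 0.08 and Kdr by -0.29. Stellate cell markers had a median of 0.07 over 4 genes, with 2 higher, 2 lower and 0 called. It was -0.16 with scaling to the median. Among them Des differed by 0.44, Lrat by -0.16 and Rgs5 by 0.15. Des was well above background on 2 of 3 normal chow arrays and passed the filter through the high-Chol diet alone. No tested marker had a raw signal of 0, and the part of these cells and of the acute-phase state in the values of the members was not tested.

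The differences were recomputed under 16 other settings of the processing, several of which, such as the methods' t-test and the filters on dim probes, leave the members' differences as they are. Of the resulting 160 values for the 10 members, 48 equalled the reported difference when rounded as printed here, and 155 had its direction. Abcb11 and Abcc3 were the members with a change of direction, and for the other 8 there was none in any of these settings. Nr1h4 ranged from -1.07 to -0.48, Nr0b2 from 0.85 to 1.49, Slco1a1 from -1.57 to -0.83 and Slc10a1 from -1.21 to -0.20. The range was -1.07 to -0.37 for Slco1a4, -0.51 to -0.15 for Slco1a5, -0.82 to -0.25 for Slco1b2, -0.84 to -0.34 for Abcc2 and -0.47 to 0.04 for Abcc3.

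**Figure D5:**
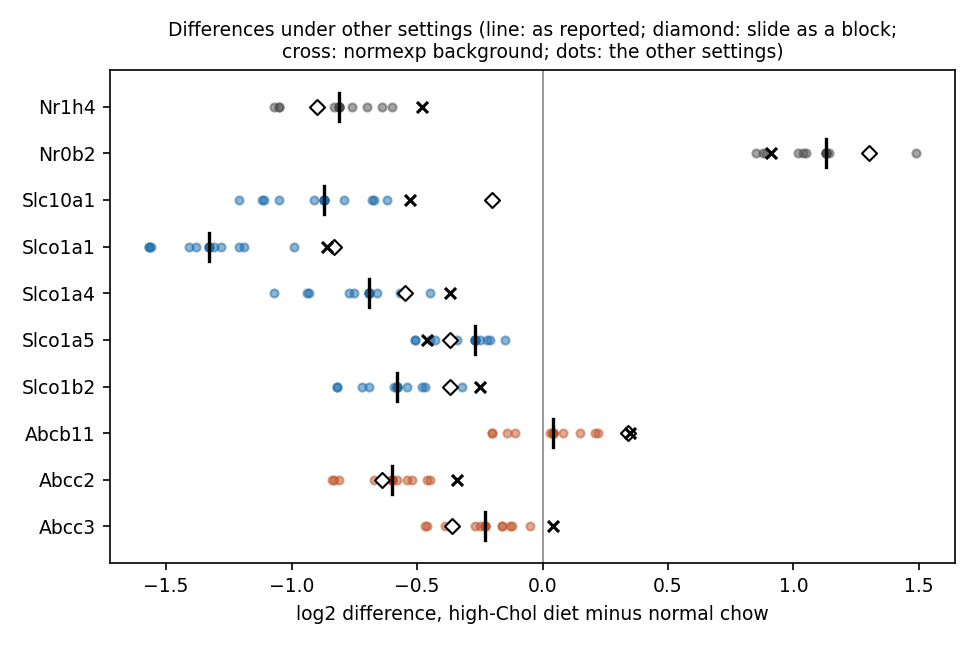
Difference of each gene between the diets, in log2 units, as reported (vertical line) and under 16 other settings: slide as a block (diamond), normexp background (cross) and the rest (dots). The uptake genes and Nr1h4 stay below 0 and Nr0b2 stays above 0 in all of them, while the values of Abcb11 run from -0.20 to 0.35.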

How the data were processed

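The authors deposited the scanner output of 6 one-colour arrays, where spot intensity had been background-subtracted by Agilent Feature Extraction (9.5 on slide 1 and 9.1 on slide 2, per the file headers). The authors also deposited log2 values for 23458 probes, with a single value per diet, normalized and filtered in Gene Spring GX. Its scaling is not given in the sources used here. Its column medians were -0.002 and -0.273, and its differences followed those computed here with a slope of 1.004 and an offset of -0.24 (r = 0.9924 across 15972 genes, which are not independent replicates).

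From the intensities, log2 signal relative to the 75th percentile of the non-control spots was computed per array. Control and outlier spots (75 to 196 per array) were left out. A probe was kept if every array of 1 diet or the other read it well above background, and a gene took its brightest probe. Symbols came from the array design and were updated through RefSeq (GRCm38.p6), where the accessions of 22951 of 41174 probes matched. The diets were compared with limma 3.58.1 (lmFit and eBayes, no covariate) in R 4.3.3 with the package data.table (1.17.8), with a threshold of 0.05 after Benjamini-Hochberg adjustment. The step was also run on simulated data with known changes. That simulation had no difference between slides, so it cannot show the error rate in these data. Python 3.11.15, pandas 2.3.3, numpy 2.4.6 and matplotlib 3.10.9 were used for tables and plots. The number of arrays limits the precision.

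The members, lists and tests were chosen with earlier results of these data known. Named genes are the members, the 3 genes of lowest p in each other list, and Apoe, Rxra, Hnf4a, Ppargc1a, Ppara, Slc10a2, Slc51a, Slc51b, Abcc4, Cyp7a1 and Cyp8b1. Arntl, Clock, Kdr and Pecam1 were named outside this rule, after their values were seen, to show the rest of their lists. Alternatives covered the background (normexp, offset 50), the scaling (median or quantile), other filters and probe rules, a block for the slide, the removal of each array in turn, the methods' t-test and the authors' values.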

Additional observations from a re-analysis of the deposited data

How the results depend on the processing

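The count of genes called over the whole array was 488 and fell to 0 with the normexp background (limma, 306 at an unadjusted p under 0.05), 26 without a filter on dim probes, 11 with slide as a block and 5 with the methods' t-test, and ran from 42 to 3074 with each array left out. Members called ran from 0 to 2 with each array left out, and were 0 in all other settings with a test. Members with an unadjusted p under 0.05 were 6 of 10 (21.2% of all genes), but 1 with normexp (1.83%), 2 with slide as a block (9.1%) and 3 after quantile normalization (19.8%). This count was 7 with scaling to the median (25.7%). With each array left out it ran from 2 without normal chow array 2 (13.5%) to 8 without normal chow array 1 (18.1%). The uptake median of -0.69 became -0.37 with slide as a block, and ran from -1.05 to -0.48 with each array left out. The export median of -0.23 was 0.04 with normexp, -0.46 with scaling to the median and -0.47 in the authors' values, and ran from -0.39 to -0.14 with each array left out. The median of all genes was -0.02, -0.11 with normexp, -0.26 with scaling to the median and -0.28 in the authors' values, and relative to it the uptake and export medians were -0.67 and -0.20, then -0.36 and 0.14, -0.67 and -0.21, and -0.66 and -0.19. Abcb11 turned to -0.20 with scaling to the median and to -0.20 in the authors' values, and ran from -0.14 to 0.22 with each array left out, and Abcc3 turned to 0.04 with normexp. The cause of these changes was not tested. No paired analysis was made, since the labels name replicates 1, 2 and 3 of each diet without saying which array is which. The array numbers used here follow file order and tie no array to one of the other diet.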
